A study of Mus musculus with 4 samples.

Results

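In mouse embryonic stem cells (ESCs), 849 NANOG peaks were bound in repressed chromatin, out of 16608 bound NANOG peaks and 21066 NANOG windows in all. A peak was taken as repressed where the deposited table flagged it so, which the study's methods define as overlap with published H3K9me3 or H3K27me3 peaks, and only where the peak was flagged neither as an active promoter nor as an active enhancer. The peaks were thus selected on their NANOG values in these libraries: bound means 0.9 RPKM or more in the mean of either condition, where RPKM is the number of reads scaled to the window's length and to the library's total. Of the 3007 windows with the repressed flag alone, 849 (28.2%) passed this threshold and 2158 did not. Within the 849, 256 had an OCT4 site within 1 kb and 593 had none. The chromatin marks and OCT4 sites behind these flags were published for other ESC lines and were not taken from the cells used here. A further 78 bound repressed peaks also carried a promoter or enhancer flag and were left out.

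NANOG was measured by chromatin immunoprecipitation and sequencing (ChIP-seq, antibody Bethyl A300-397A per the sample labels, while the study's antibody list, which names no assays, gives another NANOG antibody) in ESCs of strain 129SV from a line named ZHBT-O4AID. All cells had genotype Oct4-/- and 3 transgenes: a TetOFF Oct4 held off by doxycycline in every culture, an Oct4 fused to an auxin-inducible degron and driven by the CAG promoter (CAG Oct4AID), and the plant F-box protein Tir1, also under CAG. There were 2 uninduced libraries and 2 libraries from cells given 500 µM of the auxin IAA for 1.5 h, which makes Tir1 target the OCT4 fusion for destruction. Every cell thus lacked endogenous Oct4 and grew in N2B27 with PD03, Chiron and LIF, and the labels do not say how many clones or cultures were used. OCT4 itself was not measured in these libraries.

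NANOG is a homeodomain factor and OCT4 a POU factor of the ESC transcription network, and OCT4 binds an octamer sequence, often beside a SOX2 site. H3K9me3 is known for silencing retroelements and other repeats, H3K27me3 for the Polycomb repression of developmental genes. Many retroelement copies carry binding sites for ESC factors in their sequence. The files do not say which of the 2 marks a window overlapped.

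In what follows, values for the 4 libraries are given in the order uninduced 1, uninduced 2, IAA 1, IAA 2, called library order. The libraries held between 5406307 reads in IAA replicate 2 and 19634763 reads in IAA replicate 1, with 8236968 and 11674801 in the uninduced libraries. A single read in a window was worth 0.346, 0.244, 0.145 and 0.527 RPKM in library order. No window was below 1 read in any library, so a value of 1 read may also stand for no reads. Of the 849 repressed peaks, 250 were at this floor in at least 1 library (147, 49, 6 and 115 in the same order). Across all bound peaks the 2 uninduced libraries differed by a median of 0.41 on the log2 scale and the 2 IAA libraries by 0.10. The difference within the uninduced condition was as large as that from uninduced replicate 2 to IAA replicate 2 (0.40).

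The bound repressed peaks were made largely of repeated DNA. Soft-masked bases, those that the reference genome marks as interspersed or simple repeats, covered 50% or more of the 351 bp window in 651 of 849 repressed peaks (76.7%), against 13.8% of the other 15759 bound peaks. In the repressed windows under the threshold the share was 90.9%. Completely masked windows were 17.6% of bound repressed peaks, 1.07% of other bound peaks and 66.2% of sub-threshold repressed windows. Masking of 50% or more was found in 84.8% of the repressed peaks with an OCT4 site and in 73.2% of those without.

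**Figure D1:**
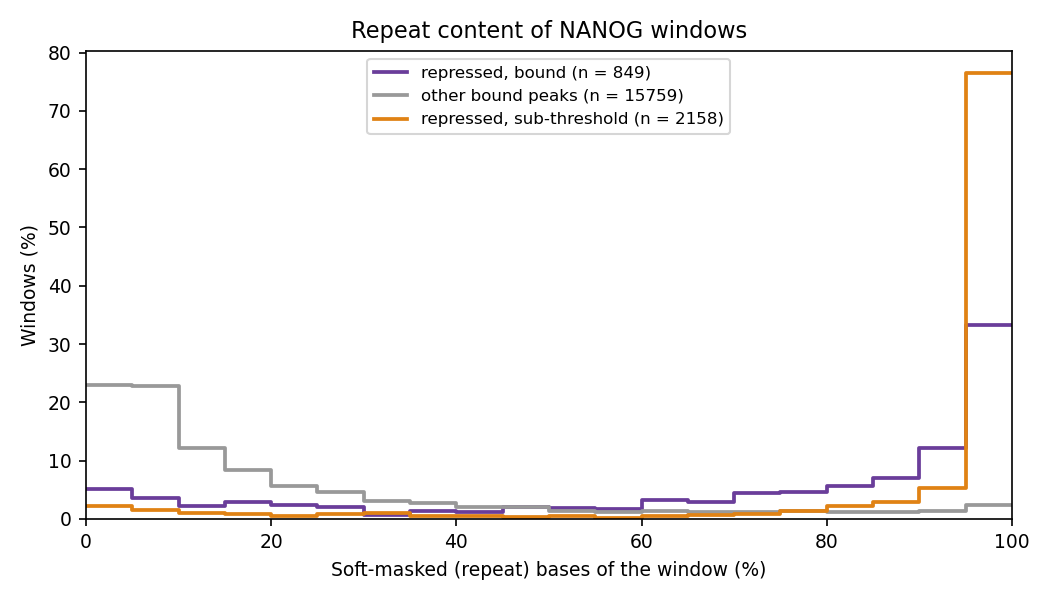
Share of windows (y axis, percent) in bins of repeat-masked bases (x axis, percent of the 351 bp window) for 849 bound repressed peaks, 15759 other bound peaks and 2158 repressed windows under the threshold. Bound repressed peaks pile up at the right end, as the sub-threshold windows do, while other bound peaks pile up at the left.

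Pairwise alignment of all 21066 windows placed 634 of the 849 peaks (74.7%) with at least 1 other NANOG window that shared 85% or more of its bases over at least 250 bp. Among the other bound peaks 10.3% had such a partner. Chaining the links gave 6 families with 10 or more bound repressed peaks, called A to F here, which held 524 of the 849 (61.7%). Another 110 peaks fell in 62 smaller families and 215 (25.3%) had no similar window. No repeat annotation was used, so the families carry no element names. The sequences of A to D are shown because the OCT4 flag differed widely between them, and because 3 short motifs set them apart.

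Family A was the largest, with 308 bound repressed peaks among 1496 windows. Its most connected copy lay at chr5:91470394-91470513 on the plus strand, 47161 bp from the nearest transcript start, that of Parm1. A group of 41 peaks inside family A held another sequence, given here as 2 copies: A2 at chr19:39890074-39890193 on the plus strand, near Cyp2c69, and A3 at chr8:72677131-72677243 on the minus strand, near Nwd1. Both had an OCT4 site. All sequences are from the GRCm38 reference (the same build as mm10) and run 5′ to 3′, with capitals for a motif described below. The reference is of another strain than the cells.
A1: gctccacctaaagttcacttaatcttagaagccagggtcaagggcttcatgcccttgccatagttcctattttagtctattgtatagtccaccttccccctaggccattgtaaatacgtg
A2: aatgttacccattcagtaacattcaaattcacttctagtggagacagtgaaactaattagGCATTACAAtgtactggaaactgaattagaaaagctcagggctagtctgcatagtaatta
A3: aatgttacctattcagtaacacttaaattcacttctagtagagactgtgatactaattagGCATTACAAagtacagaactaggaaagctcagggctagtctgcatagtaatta

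Family B held 95 of the peaks. B1 is its most connected copy (chr3:55106771-55106890 on the plus strand, near Spg20), B2 its strongest with an OCT4 site (chr12:38729850-38729971 on the plus strand, near Gm4257) and B3 its strongest without (chr7:43986269-43986399 on the plus strand, near Klk1b10-ps). The capitals mark the octamer ATGCAAAT, which B3 lacks.
B1: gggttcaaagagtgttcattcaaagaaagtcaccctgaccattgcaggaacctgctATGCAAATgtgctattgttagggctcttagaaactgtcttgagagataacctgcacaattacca
B2: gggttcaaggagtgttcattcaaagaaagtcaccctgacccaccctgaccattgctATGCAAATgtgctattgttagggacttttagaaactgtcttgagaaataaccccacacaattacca
B3: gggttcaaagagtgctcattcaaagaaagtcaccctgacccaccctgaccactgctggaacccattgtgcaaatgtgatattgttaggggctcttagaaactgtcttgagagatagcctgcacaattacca

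Family C held 60 of the peaks and family D 25. C1 is the most connected copy of C (chr16:8555604-8555723 on the plus strand, near Abat), C2 its strongest repressed copy (chr11:8754663-8754784 on the plus strand, near Gm11990) and C3 its strongest bound copy without any chromatin flag (chr19:11299031-11299150 on the minus strand, near Ms4a5). D1 to D3 are the same choices for family D (chr10:130005188-130005307 on the plus strand, near Olfr820; chr10:70842282-70842401 on the plus strand, near Gm48023; chr3:11211537-11211654 on the minus strand, near Gm22547). All 6 had an OCT4 site within 1 kb. The capitals mark TTGCAAAT in C and TTGTNATGC, read on the opposite strand as GCATNACAA, in D and in A2 and A3. C3 and D2 lack the motif of their family.
C1: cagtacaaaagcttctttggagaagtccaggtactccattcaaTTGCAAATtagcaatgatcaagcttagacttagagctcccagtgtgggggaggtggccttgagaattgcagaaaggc
C2: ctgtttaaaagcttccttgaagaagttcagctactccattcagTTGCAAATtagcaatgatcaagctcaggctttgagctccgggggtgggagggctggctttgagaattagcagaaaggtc
C3: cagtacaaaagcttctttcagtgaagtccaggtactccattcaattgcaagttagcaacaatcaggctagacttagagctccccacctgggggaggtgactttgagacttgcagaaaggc
D1: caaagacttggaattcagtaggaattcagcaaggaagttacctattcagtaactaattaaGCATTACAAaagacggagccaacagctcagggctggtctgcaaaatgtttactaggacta
D2: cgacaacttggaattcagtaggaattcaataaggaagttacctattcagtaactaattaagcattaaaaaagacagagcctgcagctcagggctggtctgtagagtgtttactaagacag
D3: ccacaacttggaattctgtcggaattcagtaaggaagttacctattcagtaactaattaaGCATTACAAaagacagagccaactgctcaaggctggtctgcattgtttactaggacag

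The share of peaks with an OCT4 site differed between families. An OCT4 site lay within 1 kb of 49 of 308 repressed peaks of family A (15.9%), 62 of 95 of B (65.3%), 58 of 60 of C (96.7%), 24 of 25 of D (96.0%), 15 of 23 of E (65.2%) and 1 of 13 of F (7.69%). Families B to E thus held 159 of the 256 repressed peaks with an OCT4 site (62.1%). Among the 215 peaks with no similar window the share was 15.3%, and among other bound peaks 23.3%. Family A was itself mixed. When windows were linked only at 90% identity or more, it split into a piece of 255 peaks, of which 5.88% had an OCT4 site, and a piece of 41 (that of A2 and A3), of which 73.2% did.

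**Figure D2:**
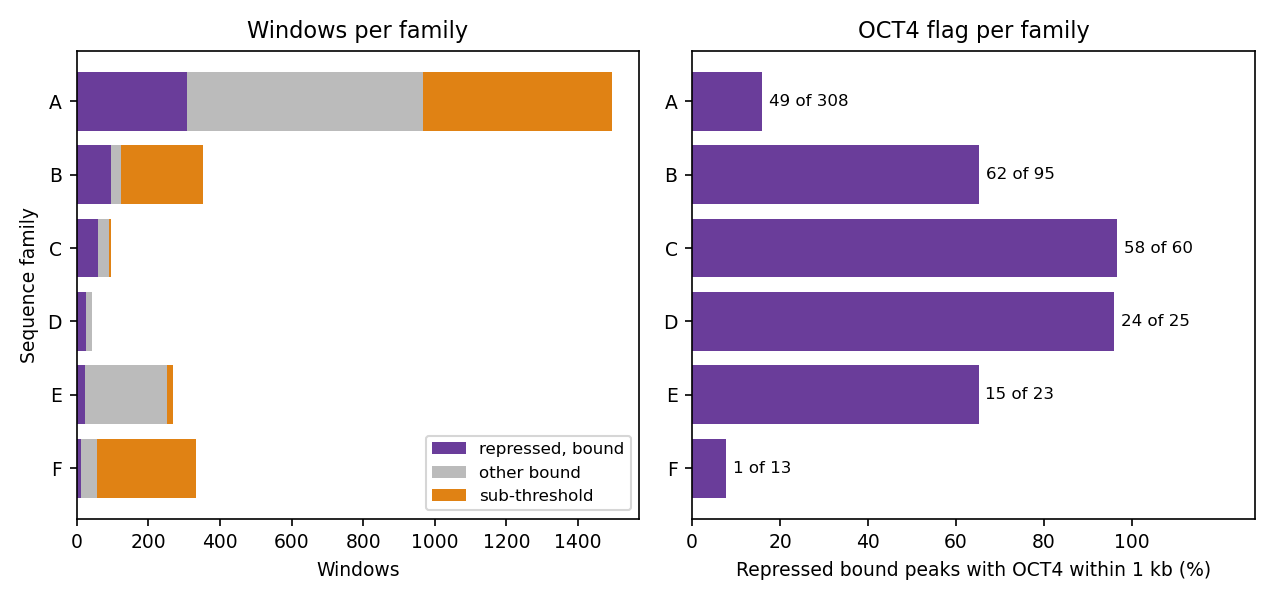
Left, windows of families A to F (x axis, number of windows) divided into bound repressed peaks, other bound peaks and windows under the threshold. Right, the percent of the bound repressed peaks of each family with an OCT4 site within 1 kb; families C and D are nearly all flagged, A and F mostly not.

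Copies of a family were not all in repressed chromatin, nor all bound. Family A had 966 bound copies among its 1496 windows and 589 copies with the repressed flag (39.4%). In family B 334 of 353 windows were repressed (94.6%) and only 123 were bound (34.8%). Families C and D were the reverse in binding, with 91 of 95 and 43 of 44 windows bound. Family E was mostly outside repressed chromatin (34 of 269 windows repressed) and mostly bound (252). Family F, the most GC-rich at a median of 61.5% against 42.7% over all bound repressed peaks, had 58 bound windows of 333.

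Motifs were searched on both strands of each 351 bp window. The octamer ATGCAAAT was present in 80 of 849 repressed peaks (9.42%) and in 2.96% of all bound peaks, and 75 of the 80 were copies of family B. Within family B it was found in 78.9% of all bound repressed copies, 83.9% of those with an OCT4 site and 69.7% of those without. The 230 copies of family B under the threshold held it in 90.9% and had an OCT4 site in 68.7%, against an OCT4 site in 65.3% of the bound repressed copies, so neither was more frequent where NANOG passed the threshold. The full composite of a SOX2 and an OCT4 site was in 0 of 849 repressed peaks and in 31 of 16608 bound peaks.

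The other 2 motifs were picked after reading the aligned sequences, and their counts are descriptions. None of the 80 peaks with the octamer held either of them. TTGCAAAT was in 57 of 60 repressed peaks of family C and in 2.08% of all bound peaks. The shorter composite TTGTNATGC was in 19 of 25 repressed peaks of family D (76.0%), in 37 of 41 of the second piece of family A (90.2%) and in 0.392% of the 255 peaks of the first piece, against 3.38% of all bound peaks. In family A it was in 32 of 49 repressed peaks with an OCT4 site (65.3%) and in 11 of 259 without (4.25%). The bound copies of family A that carried no chromatin flag showed the same split: 171 of 225 with an OCT4 site (76.0%) and 20 of 421 without (4.75%). They share the family's sequences and passed the same threshold, so this is not an independent test. Counting the 3 motifs together, at least 1 was in 167 of the 256 repressed peaks with an OCT4 site (65.2%) and in 54 of the 593 without (9.11%), against 19.5% and 3.43% of other bound peaks with and without an OCT4 site. All 3 were absent from each of the 23 repressed peaks of family E, 15 of which had an OCT4 site. TAATGG, a core recognised by NANOG, was in 15.8% of repressed peaks and 21.1% of other bound peaks, and TCAAGGTCA, the site of the nuclear receptor ESRRB, in 3.89% of repressed peaks and 3.99% of all bound peaks. These motif letters are matches only, and a window without them may still be bound.

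Bound repressed peaks lay farther from genes than the rest. They were intergenic in 65.7% and intronic in 31.7%, against 41.6% and 51.9% of other bound peaks. The median distance to a transcript start was 13206 bp against 9212 bp, and 42 (4.95%) lay within 1 kb of a start against 10.2%. Chromosome Y held 21 bound peaks, of which 6 were repressed (28.6%), while on the other chromosomes the share was between 3.52% and 6.77%.

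NANOG signal at bound repressed peaks was lower than at other bound peaks in all 4 libraries. In library order the median was 1.38, 1.71, 2.18 and 2.11 RPKM. For other bound peaks the same medians were 2.08, 2.93, 4.06 and 4.22 RPKM. On the log2(RPKM + 0.1) scale, where 0.1 is a pseudocount that shrinks changes of weak peaks, repressed peaks were lower by 0.65 ± 0.14 (SD, n = 2 libraries) in uninduced cells and by 0.92 ± 0.07 after IAA. The gap was wider in both IAA libraries than in both uninduced libraries, and the exact permutation test over libraries (two-sided) gave p = 0.33, the smallest that 2 against 2 allows. Peak values enter the threshold, so these levels describe the chosen peaks.

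Among the 849 peaks the median of the change from uninduced to IAA was 0.57 on the log2 scale, a fold of 1.48, with quartiles of 0.07 and 0.98. Under quantile normalization this median turned to -0.16. The condition mean was higher after IAA at 654 (77.0%), against 86.1% of other bound peaks, whose median change was 0.73. The median over repressed peaks was 0.38 without uninduced replicate 1 and 0.82 without uninduced replicate 2. At 376 repressed peaks (44.3%) the lower IAA value exceeded the higher uninduced value, and this held for 60.5% of all bound peaks. Both IAA values lay below at 53 (6.24%), against 4.23% of all bound peaks. Of the 849 peaks, 602 passed the threshold in both conditions, 182 only after IAA and 65 only in uninduced cells. The threshold used the same values, so none of these counts is evidence about the repressed peaks.

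In a limma fit over all 16608 bound peaks, 50 repressed peaks were called higher after IAA and 0 lower at a Benjamini-Hochberg adjusted p of 0.05, where 15.0% of all bound peaks were called higher and 0.337% lower. At an unadjusted p under 0.05 the counts were 133 and 2, and voom on the recovered reads called 41 and 0. Quantile normalization, which removes a shift common to all peaks, left 0 calls in limma (15 higher at an unadjusted p under 0.05), and limma without a variance trend called 6 higher. Of the 50 called peaks 17 had an OCT4 site and 33 had none, 16 were in family A and 34 were masked over 50% or more of the window. Their log2 changes ran from 1.16 to 2.58. The count was 27 without uninduced replicate 1, 177 without uninduced replicate 2 and 0 without either IAA library.

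**Figure D3:**
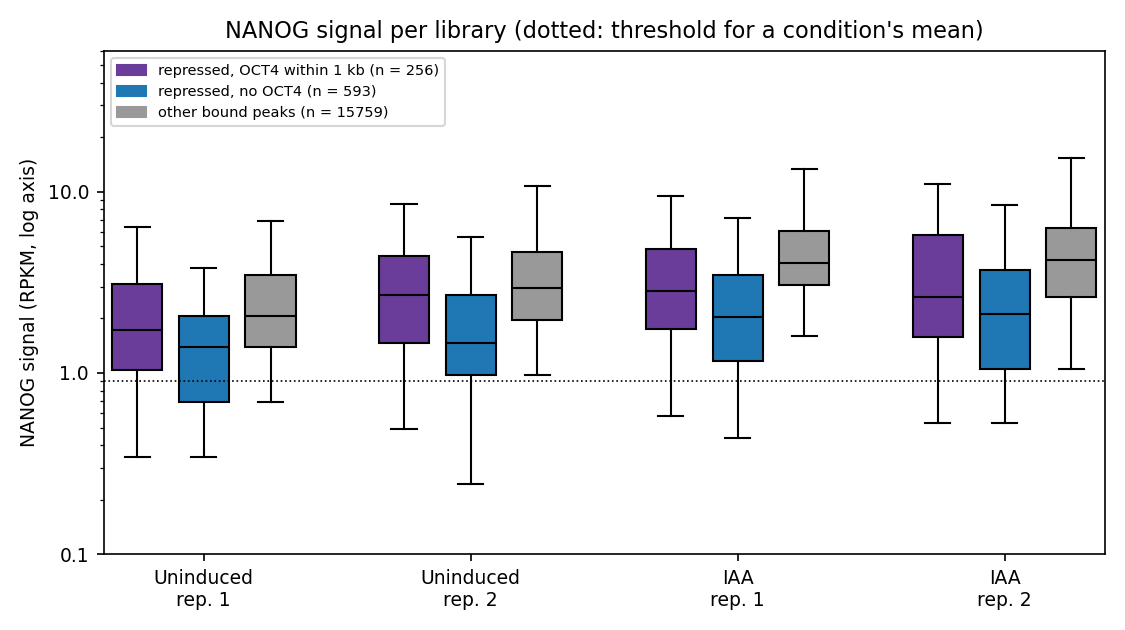
NANOG signal (y axis, RPKM on a log axis) in each of the 4 libraries for repressed peaks with an OCT4 site (n = 256), repressed peaks without (n = 593) and other bound peaks (n = 15759). Boxes span the quartiles with the median as a line and whiskers the 5th to 95th percentile; in each library the repressed peaks without an OCT4 site have the lowest median.

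Repressed peaks with an OCT4 site had more NANOG than those without in every library. Their medians were 1.73, 2.68, 2.83 and 2.63 RPKM in library order, against 1.38, 1.46, 2.03 and 2.11 RPKM. The log2 gap was 0.30, 0.83, 0.46 and 0.31 in the same order, so that the IAA values lay between the uninduced ones (exact permutation test over libraries, two-sided, p = 1.00). The median change after IAA was 0.43 with an OCT4 site, where 189 of 256 were higher (73.8%), and 0.60 without, where 465 of 593 were higher (78.4%). The difference of the medians, -0.17, ranged from -0.31 to -0.16 over the pairings of 1 uninduced with 1 IAA library. At other bound peaks the OCT4 gap in level was 0.56, 0.69, 0.15 and 0.17 in library order (exact permutation p = 0.33). Their difference in change was -0.47 (-0.52 to -0.45 over the same pairings), a range that did not overlap that of the repressed peaks. The pairings share libraries, so these ranges are not a test. The repressed gap in level minus that of other bound peaks was -0.26, 0.14, 0.31 and 0.14 over the 4 libraries (exact permutation p = 0.33, SD of 0.22 between replicates). A difference between the 2 sets of peaks in this gap was thus not resolved.

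Family A was also split by OCT4 site, although its copies with and without a site were largely of different sequence, as 30 of the 49 repressed copies with a site lay in the second piece and 15 in the first. Repressed copies with an OCT4 site were stronger than those without by 0.94, 0.95, 0.35 and 0.56 on the log2 scale in library order (exact permutation p = 0.33). Their median change was 0.34 (n = 49) against 0.66 (n = 259). Copies of family A that were bound but carried no chromatin flag had a median change of 0.28 with an OCT4 site (n = 225) and 0.72 without (n = 421). The 41 peaks of the second piece, with the TTGTNATGC motif in 37, had a median change of 0.28 against 0.68 in the first piece. The first piece was nearer the floor, with 63 of 255 at 1 read in uninduced replicate 1 against 5 of 41, and the part of depth in this difference was not tested. Inside the first piece, repressed peaks with an OCT4 site were stronger than those without by 1.15, 0.83, 0.56 and 0.78 in library order, with median changes of 0.59 (n = 15) and 0.68 (n = 240), a difference of -0.09 (-0.42 to 0.07 over pairings of single libraries). Inside the second piece the median changes were 0.29 (n = 30) and 0.20 (n = 11), a difference of 0.09 (-0.54 to 0.33). The lower change of copies with a site over the whole family was thus not resolved inside either piece. These splits inside the pieces were added after the data were seen.

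Family A also allowed copies with and without the repressed flag to be set side by side. Repressed copies had a median change of 0.63 and unflagged bound copies of 0.58, a difference of 0.05 (0.08 to 0.21 over pairings of single libraries), while the repressed copies were weaker in level by 0.38, 0.26, 0.30 and 0.31 in library order. Each difference in change comes from condition means and its range from single-library values, so a difference can lie outside its range. An OCT4 site was present in 15.9% of the repressed copies and 34.8% of the unflagged ones. Among copies with a site the difference in change was 0.06 (-0.10 to 0.09), and among copies without it was -0.06 (-0.04 to 0.13), so its sign was not resolved. In IAA replicate 2 the medians of repressed and unflagged copies were equal both with and without a site, and in the other 3 libraries the repressed copies were weaker by 0.11 to 0.38. Repeat content was compared in the same way. Among bound peaks masked over 50% or more, the median change was 0.56 for the 651 repressed and 0.60 for the 1964 that carried no chromatin flag, a difference of -0.04 (-0.07 to 0.00 over pairings of libraries). Under 50% masked it was 0.58 for 198 repressed and 0.77 for 11783 unflagged peaks, a difference of -0.19 (-0.29 to -0.14).

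The other families differed in level and change. Family B was the weakest of families A to E after IAA, at median values of 1.04, 1.22, 1.31 and 1.58 RPKM in library order, and its median change was 0.31 with 27.4% of 95 peaks higher in both IAA libraries. Against the other repressed peaks it was lower by 0.38, 0.64, 0.87 and 0.70 in library order (exact permutation p = 0.33). Family C was stronger, with medians of 2.42, 3.42, 3.92 and 3.95 RPKM, a median change of 0.58 and both IAA values above both uninduced values at 36 of 60, where the share over all bound peaks was 60.5%. Family D had medians of 1.73, 2.93, 3.48 and 3.69 RPKM and a median change of 0.32. Family E had a median change of 0.82. All 23 of its repressed peaks had a higher mean after IAA, against 77.0% of the 849 and 86.1% of other bound peaks. Family E went from below the other repressed peaks in both uninduced libraries, by 0.38 and 0.21, to above them in both IAA libraries, by 0.17 and 0.31 (exact permutation p = 0.33). The threshold used these values, so they describe the chosen peaks. Unflagged bound copies of E had a median change of 0.73 (n = 196). Family F was at the floor in uninduced replicate 1 at 7 of its 13 peaks, so that its median change of 0.94 rests on values at or near that floor. Copies of a family can share reads, since the study aligned them with Bowtie2 at default settings, which give each read a single placement, drawn at random among equally good ones.

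**Figure D4:**
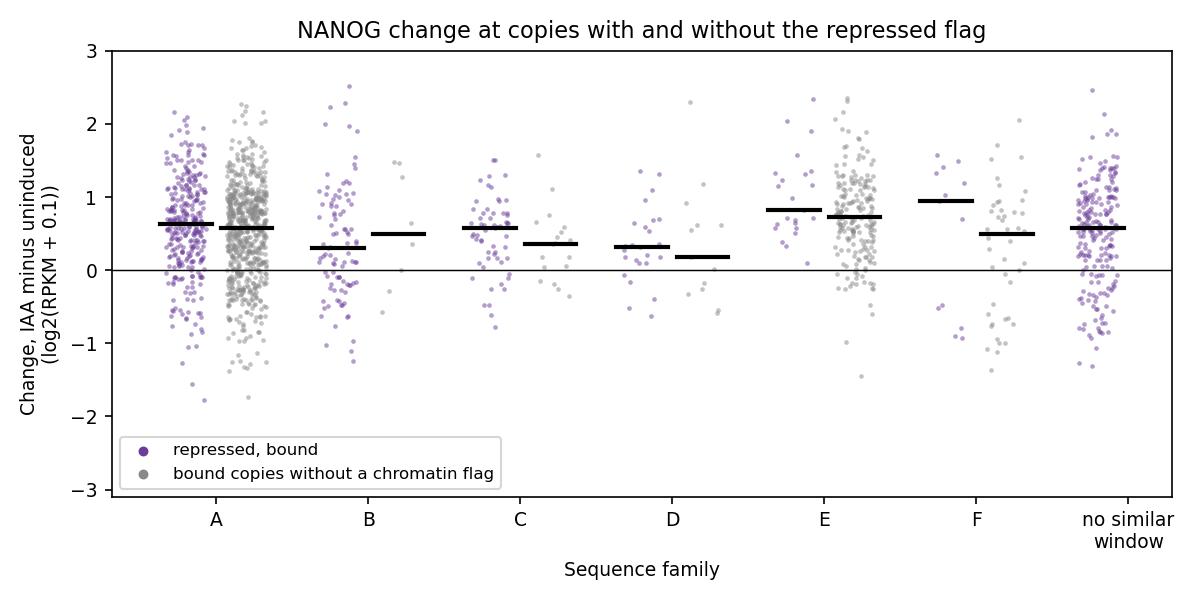
Change of NANOG from uninduced to IAA (y axis, log2(RPKM + 0.1)) for each bound repressed peak and each bound copy without a chromatin flag, by sequence family A to F, and for repressed peaks with no similar window. Points are peaks and bars are medians; in family A the medians are 0.63 and 0.58, and all 23 repressed peaks of family E lie above 0.

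The 215 repressed peaks with no similar window were a stronger group, at medians of 2.08, 2.44, 3.34 and 3.16 RPKM, and 29.8% of them were masked over 50% or more. Their median change was 0.57 and 17 of them were called higher (7.91%, against 15.0% of all bound peaks). Of the 5 strongest repressed peaks with an OCT4 site and the 5 strongest without, 8 in all had no similar window. The other 2 were a copy of family A and a peak in Gm49448.

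The strongest bound repressed peaks were far above the median of the set. No input or IgG library was among the libraries used, so background signal at these windows was not measured. Without an OCT4 site, a window in an intron of Sfi1, which encodes a centrin-binding protein of the centrosome, at chr11:3167646-3167996 had 27.7, 28.1, 29.2 and 35.3 RPKM in library order. A second Sfi1 window, at chr11:3176421-3176771, had 23.2, 18.5, 20.7 and 30.6 RPKM. The limma log2 changes were 0.20 ± 0.49 and 0.28 ± 0.46 (SE), neither past the threshold (adjusted p = 0.775 and 0.672), and under quantile normalization both signs turned.

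A peak at chr7:132179004-132179354 had 16.3, 26.6, 25.5 and 40.1 RPKM, where uninduced replicate 2 overlapped the IAA values. It lay in an annotated intron of Fgfr2, the gene of a fibroblast growth factor receptor of trophoblast cells. Its nearest transcript start, 24440 bp away, was that of Cpxm2, so it is tied to Fgfr2 only by the annotated gene body. An intron of Grik3, which encodes a kainate receptor subunit, held one with 6.57, 12.2, 17.4 and 21.1 RPKM at chr4:125493365-125493715. There the IAA values lay above the uninduced ones, with a log2 change of 1.09 ± 0.43 (SE) that missed the threshold in limma (adjusted p = 0.061) and passed it with voom (adjusted p = 0.042). The strongest repressed copy of family A, 8758 bp from the start of the lectin gene Cd209e, had 8.65, 11.2, 15.2 and 18.97 RPKM.

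With an OCT4 site, the strongest peak was in an intron of the zinc finger gene Zfp462 (chr4:54987134-54987484) at 11.1, 19.03, 23.7 and 30.6 RPKM. It was followed by an intron of Ror2, a receptor for the ligand WNT5A, at 10.7, 13.7, 19.2 and 23.2 RPKM. An intron of Bcat1, a branched-chain aminotransferase, had 7.96, 14.6, 16.7 and 18.97 RPKM. These 3 peaks had higher values in both IAA libraries, and limma called none of them (adjusted p from 0.146 to 0.219). The fourth, in an intron of Gm49448, had 6.23, 12.2, 16.7 and 18.4 RPKM. A peak 13818 bp from Zfp42, a gene that marks naive pluripotent cells, had 6.92, 13.7, 11.9 and 12.6 RPKM, so that uninduced replicate 2 was its highest library.

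**Figure D5:**
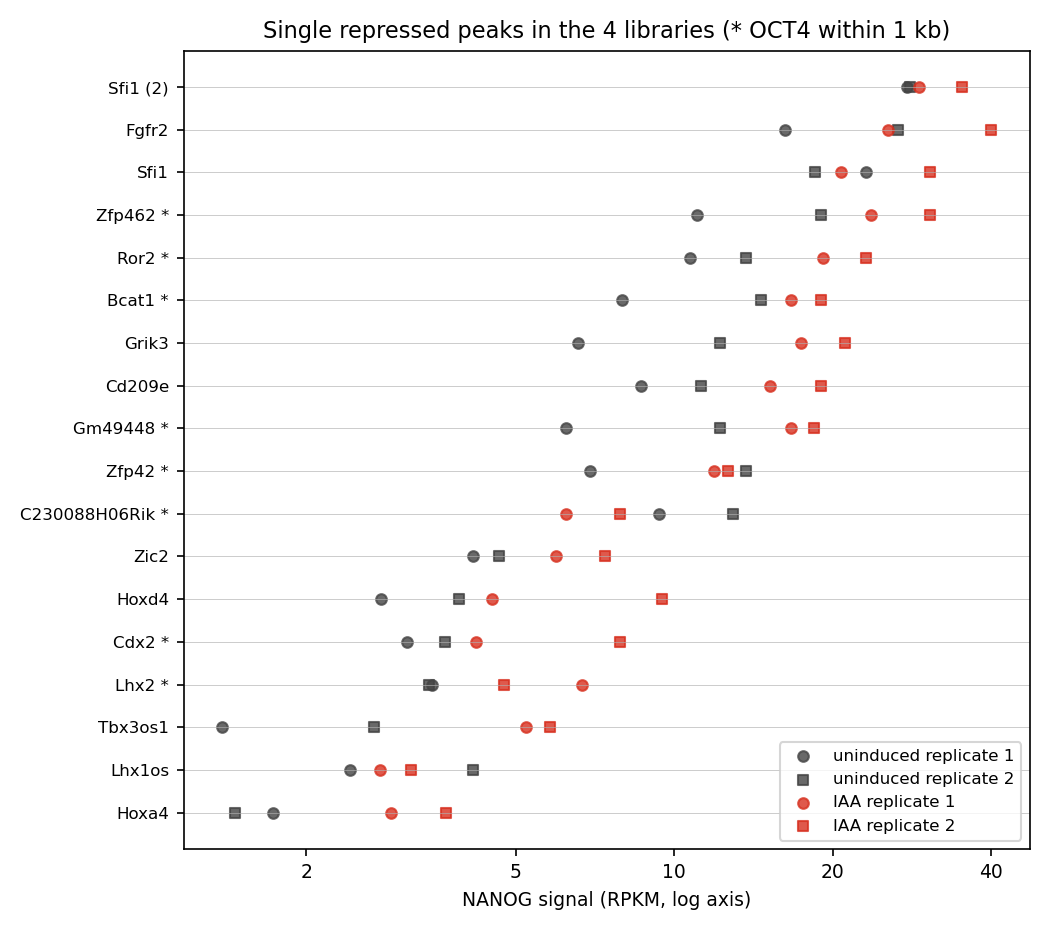
NANOG signal (x axis, RPKM on a log axis) in the 4 libraries at the 10 strongest bound repressed peaks and at those near listed genes, named by the gene that holds the peak or the nearest one; a star marks an OCT4 site within 1 kb. At most peaks the 2 IAA libraries (red) lie to the right of the 2 uninduced libraries (dark), with overlap at 1 of the Sfi1 peaks, Fgfr2, Zfp42 and Lhx1os, and the reverse order at C230088H06Rik.

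Of the 849 peaks, 21 lay near a gene of the lists of developmental, pluripotency, zinc finger and other genes. Within 10 kb of a listed gene were 2 peaks for Hox genes, 2 for ectoderm genes, 1 for mesoderm and endoderm genes, 3 for trophectoderm genes and 1 for naive pluripotency genes. There were 0 for signalling ligands, imprinted genes and germline genes, and 12 for zinc finger genes. As a share of the peaks these were 0.236% for Hox genes (0.0254% of other bound peaks), 0.236% for ectoderm (0.114%), 0.118% for mesoderm and endoderm (0.0888%), 0.353% for trophectoderm (0.298%), 0.118% for naive pluripotency (0.267%) and 1.41% for zinc finger genes (1.24%). Counts this small were not tested. Of these 21 peaks limma called 1 higher, where 15.0% of all bound peaks were called higher. Only 3, all at zinc finger genes, were masked over 50% or more, against 76.7% of the 849. Sub-threshold repressed windows near the same lists numbered 0, 0, 2, 0, 0, 6, 0, 2 and 27 for Hox, ectoderm, mesoderm and endoderm, trophectoderm, naive pluripotency, signalling, imprinted, germline and zinc finger genes.

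The called peak was 4749 bp from the start of Tbx3, a T-box factor of naive ESCs, at chr5:119665745-119666095. It had 1.38, 2.68, 5.22 and 5.80 RPKM in library order. The IAA values lay above both uninduced values, and the log2 change was 1.46 ± 0.50 (SE, limma adjusted p = 0.034). Its log2 change ran from 1.01 without uninduced replicate 1 to 1.92 without uninduced replicate 2. It was not called under quantile normalization or without a variance trend. In the Hox clusters, a peak in an intron of Hoxa4 had 1.73, 1.46, 2.90 and 3.69 RPKM and one at Hoxd4 2.77, 3.90, 4.50 and 9.49 RPKM. Neither passed limma (adjusted p = 0.203 and 0.116). Cdx2, the trophectoderm homeobox gene, held an intronic peak with an OCT4 site at 3.11, 3.66, 4.21 and 7.90 RPKM (adjusted p = 0.225 in limma). Lhx2, a LIM homeobox gene of the forebrain and eye, held one with an OCT4 site at 3.46, 3.42, 6.67 and 4.74 RPKM. The peak near Zic2, a zinc finger factor of the neural plate, had 4.15, 4.64, 5.95 and 7.38 RPKM and no OCT4 site. The strongest peak near a zinc finger gene with the reverse order, in an intron of C230088H06Rik near Zfp991, had an OCT4 site and 9.34, 12.9, 6.24 and 7.90 RPKM, and limma did not call it (log2 change -0.64 ± 0.42, adjusted p = 0.265). At Lhx1os, beside the mesoderm gene Lhx1, the values were 2.42, 4.15, 2.76 and 3.16 RPKM and the conditions overlapped.

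The largest rises among repressed peaks with at least 3 reads in every library and no overlap of conditions were at intergenic windows. At chr6:60204244-60204594 the values were 2.08, 1.22, 6.96 and 6.32 RPKM (log2 change 1.99 ± 0.50, limma adjusted p = 0.00501). A copy of family A at chr12:43212158-43212508 had 2.08, 3.66, 9.29 and 10.01 RPKM (1.77 ± 0.45, limma adjusted p = 0.00495). A copy of family E with an OCT4 site, at chr7:85104477-85104827, had 1.04, 1.22, 3.19 and 5.80 RPKM (1.85 ± 0.58, limma adjusted p = 0.022). The other 2 of the 5 lay on chromosomes 10 and 18, with log2 changes of 1.84 and 1.82. Both had an uninduced mean of 0.885 RPKM, under the threshold, so they entered the set only through the IAA values that make them rises. Each held 3 reads in either uninduced library, the fewest that the choice of these peaks allowed. With 1 library left out in turn, the log2 changes of these 5 peaks ran from 1.32 to 2.35. None of the 5 was called under quantile normalization, which left no call among repressed peaks, or without a variance trend. Those on chromosomes 10 and 18 also lost their calls at a threshold of 2 RPKM, as the chromosome 18 peak did under voom.

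Among peaks with at least 3 reads in every library whose conditions did not overlap, the 5 with the most negative log2 changes did not pass limma (adjusted p from 0.258 to 0.378). The family A copy 20804 bp from Klhl8 had 3.80, 3.42, 2.47 and 1.58 RPKM, and an intronic peak of Kat6a, a histone acetyltransferase gene, 3.11, 3.90, 2.61 and 1.58 RPKM. The peaks next to Zfp454, Cyp2c40 and Cyp2b23 had log2 changes from -0.81 to -0.69. In IAA replicate 2 all of the 5 rested on 3 or 4 reads.

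Repressed peaks were spread over the genome, and the densest 100 kb held 4 of them, on chromosome 1 in introns of C130026I21Rik and A530032D15Rik. Their log2 changes in limma ran from -0.29 to 0.45. The 3 peaks just inside the threshold had a mean of 0.905 RPKM in uninduced cells, each from 0.346 and 1.46 RPKM, that is from the floor of 1 read and from 6 reads. The 3 repressed windows just outside had a mean of 0.890 RPKM after IAA, each from 0.726 and 1.05 RPKM.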

How the data were processed

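NANOG ChIP-seq was analysed in 2 uninduced and 2 IAA libraries, grouped by the labels. Per the study's methods and the submitters' processing notes, the authors aligned reads to mm10 with Bowtie2 2.3.4.3, removed duplicates, called peaks with MACS2 on both conditions together, and computed the deposited RPKM values with DiffBind over windows of 351 bp around summits. The chromatin and OCT4 flags are also the authors', from published data of other ESC lines, and the pooled table holds the mean RPKM of each condition. RPKM is relative to a library's total, with no scaling to added chromatin.

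The RPKM steps gave whole reads in 100% of values (tolerance 1e-06), so reads were recovered, except that the floor of 1 read may also stand for no reads. The threshold of 0.9 RPKM equals from 1.71 reads (IAA replicate 2) to 6.20 reads (IAA replicate 1), which limits precision at weak peaks. Repressed peaks were described by medians of log2(RPKM + 0.1), and class medians per library were compared by exact permutation over libraries. Single peaks were tested with limma 3.58.1 (two-sided, with a variance trend, adjusted by Benjamini-Hochberg across the 16608 bound peaks, called at 0.05), and voom on recovered reads was an alternative in place of a planned count model, which was not run because the values are RPKM. The labels do not name separate cultures, so p-values measure only the spread between these libraries. The script was tested on simulated data.

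Window sequences came from GRCm38 and genes from GENCODE release 21 (1-based coordinates). Families were built with BLAST 2.17.0 (85% identity over 250 bp, single linkage; 80% over 200 bp and 90% over 250 bp were tried). Named peaks were the 5 strongest with and without an OCT4 site, the 5 largest rises and falls with at least 3 reads in every library and no overlap of conditions, the 2 strongest within 10 kb of each of 9 gene lists, and the densest 100 kb. The peaks, lists and tests were chosen with earlier results of these data known.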

Additional observations from a re-analysis of the deposited data

How the results depend on the processing

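Changes are on the log2 scale. Under quantile normalization, which removes a shift common to all peaks, the median change of the repressed peaks turned from 0.57 to -0.16 and the limma count of higher peaks went from 50 to 0, while the difference from other bound peaks was -0.20 in place of -0.16. With no threshold, 2158 repressed windows mostly at the 1-read floor were added. The median change was then 0.14, the value that a window at the floor in every library takes from the floors alone. It is thus not a measured change. The difference from other peaks, -0.50, and the OCT4 difference, 0.0198 in place of -0.17, include the same floor windows. Without a variance trend limma called 6. Leaving out each library in turn gave median changes from 0.38 to 0.82, OCT4 differences from -0.23 to -0.15, differences from other peaks from -0.23 to -0.15, and 0 to 177 higher and 0 to 1 lower calls. With a single library left in a condition, it is assumed to vary like the others. Other pseudocounts (0.01 and 0.5) and a threshold of 2 RPKM left the medians, differences and limma counts on their side (39 to 50 higher). Keeping peaks with other flags did so for the median change and both differences, with no limma count made. So did, chosen after seeing the data, at least 2 reads in every library (42 higher) and peaks with no similar window only (no limma count), where the OCT4 difference was -0.11 and -0.05.

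The replicate numbers did not pair the libraries (r = 0.0055 between same-numbered deviations). A fit with the replicate number as a block called 49 higher, and 0 lower. Of the named peaks it added calls for Zfp462, Ror2, Gm49448 and Grik3 (adjusted p from 0.010 to 0.044 in limma) and lost the chromosome 18 peak (0.051). Without uninduced replicate 2, 9 named peaks were gained.

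Of the named peaks, 8 changed sign under quantile normalization: the peaks at Sfi1 to -0.39 (both), the pair at chr1:85080434 and chr1:85090483 to -0.31 and -0.48, Zfp42 to -0.39, Fgfr2 to -0.0948, Zic2 to -0.0831 and Bcat1 to -0.0198. Leaving out 1 library turned chr1:85090483 (from -0.0724 without IAA replicate 2 to 0.55 without IAA replicate 1), chr1:85147534 (from -0.67 without uninduced replicate 2 to 0.44 without uninduced replicate 1, and 0.03 without IAA replicate 2; 0.0464 with voom), Lhx1os (0.28 without uninduced replicate 2) and Zfp42 (-0.15 without uninduced replicate 1). The cause was not tested. Tbx3 and the called rises were not called under quantile normalization or without a variance trend. The planned edgeR fit was not run, and voom called 41 higher and 0 lower. Linking windows at 80% over 200 bp gave a largest family of 339 peaks that held all 308 of A, with an OCT4 site in 22.7%, and at 90% over 250 bp family B kept 91 of 95 with 65.9%.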

Other observations

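Repressed peaks that held the octamer were among the weakest. The 80 with ATGCAAAT had median signals of 1.04, 1.22, 1.31 and 1.58 RPKM in library order (uninduced 1, uninduced 2, IAA 1, IAA 2), against 1.38, 1.95, 2.47 and 2.11 RPKM for the 769 without it. Their median log2 change was 0.18 against 0.57. Limma called 1 of the 80 higher and 49 of the 769, where 15.0% of all bound peaks were called higher. Of the 80, 75 belonged to family B. Inside family B, in a comparison added after the data were seen, the 75 peaks with the octamer and the 20 without had equal medians in both uninduced libraries, and those with it were lower by 0.27 and 0.20 in IAA replicates 1 and 2 (exact permutation p = 0.33, the smallest possible). Their median changes were 0.17 and 0.51, a difference of -0.34 (-0.45 to -0.01 over pairings of single libraries). These peaks held few reads, with 1 read worth 0.346, 0.244, 0.145 and 0.527 RPKM in library order. Equal medians can thus be ties in whole reads, and the gap in IAA replicate 2 was less than 1 read. With an OCT4 site but no octamer, 203 repressed peaks had medians of 2.08, 3.17, 3.34 and 3.69 RPKM and a median change of 0.52.

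The 42 repressed peaks within 1 kb of a transcript start had a median change of 0.71. Of them 83.3% were higher after IAA, against 86.1% of other bound peaks. Limma called 1 of them, where 15.0% of all bound peaks were called higher. CpG-rich windows, with an observed to expected CpG ratio of 0.6 or more, were 22 of the 849 (2.59%), 2.46% of other bound peaks and 18.1% of sub-threshold repressed windows. A search of the GRCm38 reference with the most connected repressed copy of each family, chromosome 18 left out of the choice, found 1543 matches for A, 753 for B, 474 for C, 86 for D, 174 for E and 376 for F. The NANOG windows of these families numbered 1496, 353, 95, 44, 269 and 333. These counts are unlike: a match had to resemble that single copy, while windows were chained through one another. They thus do not give the share of genomic copies that are NANOG windows.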
